A study of Mus musculus with 8 samples.

Results

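Elastin and the genes that assemble elastic fibres were followed in mouse lungs after treatment with mepenzolate, which blocks muscarinic acetylcholine receptors, or with vehicle. The set was a list of 10 genes (Eln, Fbn1, Fbln1, Fbln2, Fbln5, Lox, Loxl1, Mfap4, Mfap5 and Emilin1). Of these, 9 had a probe set assigned to that gene alone, out of 19937 such genes on the array, and all 9 were bright enough to be tested among 14953 genes. Fbn1, which encodes fibrillin-1, was not analysed here. Each of the 9 genes had 1 probe set, so no choice among probes entered its values.

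There were 4 groups of 2 arrays. Mepenzolate in PBS was given into the trachea of mice anaesthetised with chloral hydrate (500 mg/kg), the other mice got vehicle, and total RNA of lung tissue was profiled under the time labels 7 h and 25 h. The study asked how mepenzolate lessens inflammation and oxidative stress in the lung, in the setting of chronic obstructive pulmonary disease. The labels of these 8 arrays name no lung injury, and the strain, sex and age of the mice, the mepenzolate dose and the composition of the vehicle were not given in the sources used here. They also do not state whether the arrays of a group stem from separate mice, so the p-values measure the spread between these arrays, which may be technical.

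Elastic fibres let the lung recoil after each breath. Their core is crosslinked elastin, secreted as the soluble monomer tropoelastin, and it is laid down on a scaffold of microfibrils built mainly from fibrillin. Fibulins carry tropoelastin to the scaffold, lysyl oxidases crosslink it, and emilins and microfibril-associated proteins lie at the border of core and scaffold. In the adult lung most elastin is long-lived, and loss of elastic fibres is a hallmark of emphysema.

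The RefSeq table of promoter windows (250 bases before to 50 after a transcription start, build GRCm38.p6) held all 3 fibulins of the set. It matched 5 of the 10 listed genes, and where a gene had 2 windows (Fbln1 and Fbln5) the one nearest the RefSeq gene start was taken. The only window of Fbln2 is set on a start 304 bases downstream of the first base of the RefSeq gene, so it lies within the gene as annotated. The windows are shown because the fibulins are the family with the most members in the set, and the arrays of Fbln2 and Fbln5 lay wholly higher with mepenzolate at 7 h and those of Fbln1 did not, although none of the 3 was called and Fbln5 rested on 1 array. Capitals mark matches, on either strand, to the GC box GGGCGG or to the E-box CACGTG, a motif of basic helix-loop-helix factors, and the matches do not overlap. The TATA box TATAAA and the AP-1 site TGACTCA were searched as well and had no match in the 3 windows.
Fbln1, chr15:85205699-85205998, + strand: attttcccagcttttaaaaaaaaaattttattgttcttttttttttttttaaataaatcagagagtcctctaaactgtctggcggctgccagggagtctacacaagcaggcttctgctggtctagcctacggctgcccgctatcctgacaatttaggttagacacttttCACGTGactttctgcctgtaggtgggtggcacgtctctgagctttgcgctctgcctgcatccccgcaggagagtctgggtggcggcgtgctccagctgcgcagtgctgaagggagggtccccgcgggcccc
Fbln2, chr6:91212514-91212813, + strand: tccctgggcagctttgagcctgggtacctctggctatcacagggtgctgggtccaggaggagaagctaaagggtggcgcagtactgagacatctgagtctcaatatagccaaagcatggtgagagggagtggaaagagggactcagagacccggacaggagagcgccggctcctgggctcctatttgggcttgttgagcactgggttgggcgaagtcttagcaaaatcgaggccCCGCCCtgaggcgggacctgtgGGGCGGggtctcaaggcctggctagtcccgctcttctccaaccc
Fbln5, chr12:101819070-101819369, - strand: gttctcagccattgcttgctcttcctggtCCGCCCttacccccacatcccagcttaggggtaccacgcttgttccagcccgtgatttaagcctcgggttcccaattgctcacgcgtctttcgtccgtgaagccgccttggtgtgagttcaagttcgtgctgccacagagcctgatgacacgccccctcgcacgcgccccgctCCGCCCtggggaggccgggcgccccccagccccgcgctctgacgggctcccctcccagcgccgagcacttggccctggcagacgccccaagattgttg
The Fbln1 window held 1 E-box and 0 GC boxes, and had 51.7% G and C bases. The windows of Fbln2 and Fbln5 held 2 GC boxes and 0 E-boxes each, with 60.3% and 65.7% G and C bases. Of 32851 promoter windows of the same 300 bases in the table, 35.7% held the GC box, 7.2% the E-box, 13.6% the TATA box and 5.2% the AP-1 site, and the median share of G and C bases was 52.7%. These matches describe the letters of the windows and are not evidence of binding. A link between these matches and the differences with treatment was not tested.

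All levels below are log2 expression values deposited by the authors, and all differences are log2 differences with standard errors from limma, an empirical Bayes linear model fitted over all 14953 genes. A gene was called where its Benjamini-Hochberg adjusted p was below 0.05. Levels of different genes are not compared, because each probe set has its own response. The lung origin of the samples was plain from bright marker genes on every array, among them Sftpc of alveolar type 2 cells (13.49 to 13.56), Ager of type 1 cells (12.30 to 12.49), Scgb1a1 of club cells (13.23 to 13.49) and Pecam1 of endothelium (11.13 to 11.30). Some cardiac muscle markers were bright on every array too, such as Actc1 (11.51 to 11.90) and Tnnt2 (10.09 to 11.65). The cardiac marker Sln stood at 6.32 to 7.20. The source of the cardiac signal was not tested. Array medians over all probes ran from 6.70 to 6.77, and the r of replicate arrays over the genes tested from 0.987 to 0.994. In whole tissue, fewer cells of a type cannot be told apart from less RNA per cell.

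**Figure D1:**
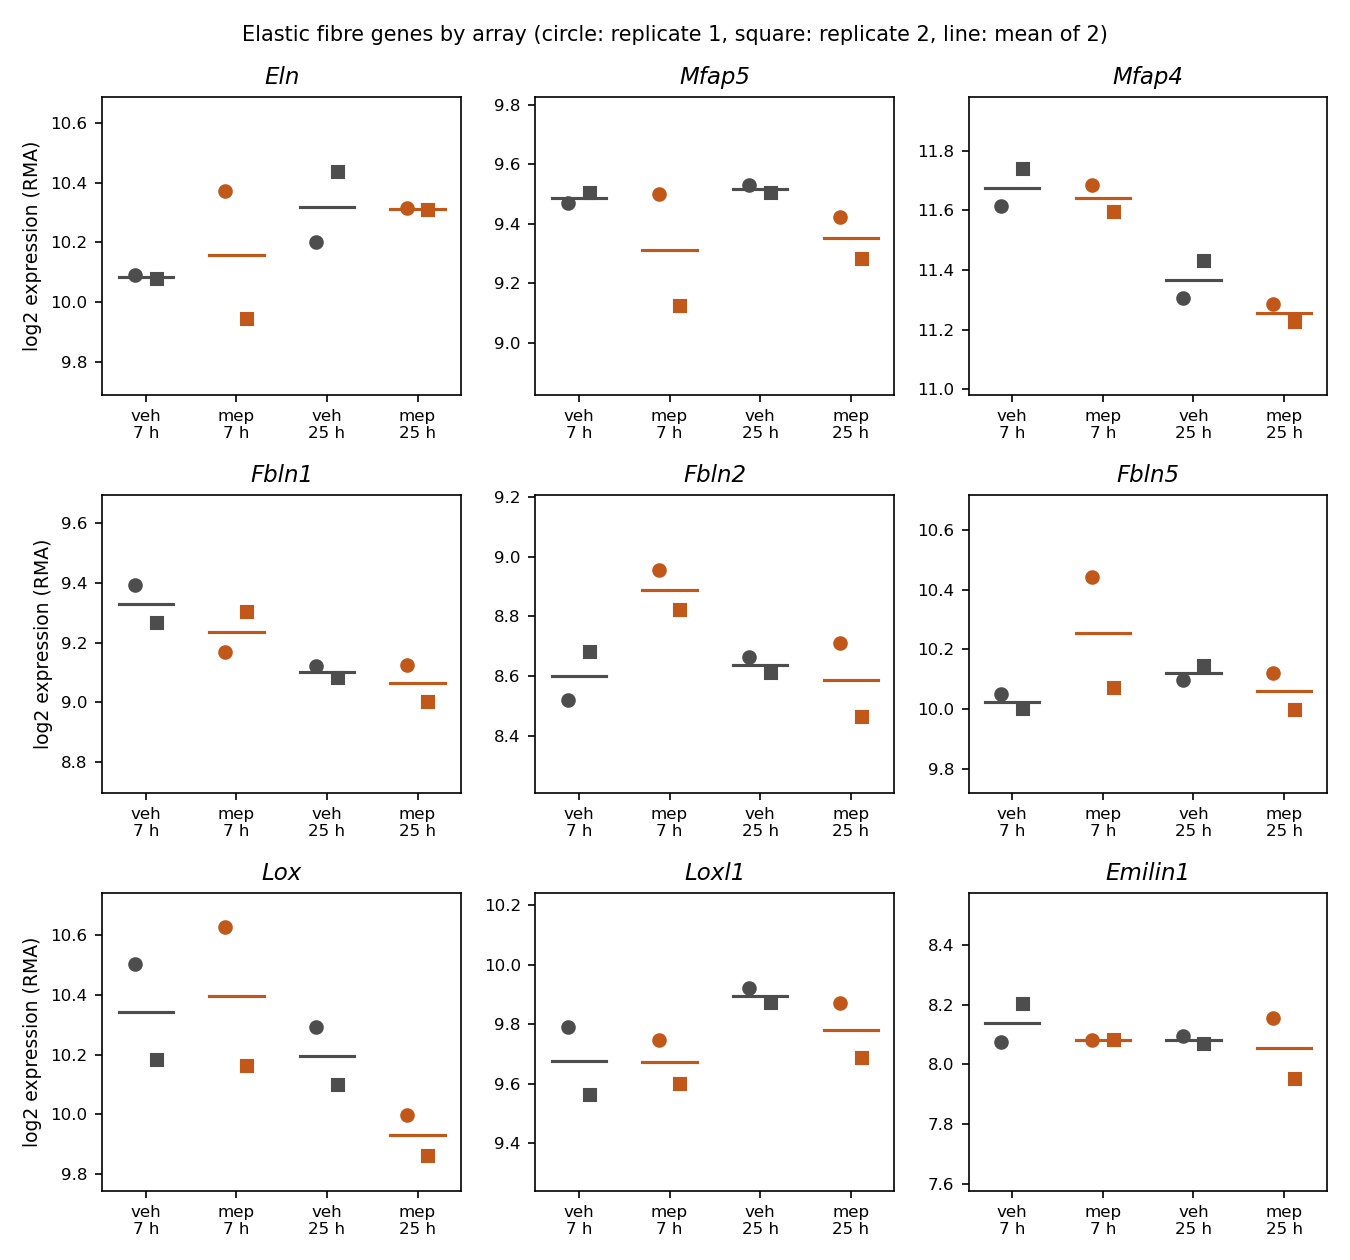
Log2 expression of the 9 genes on each array, by group (veh, vehicle; mep, mepenzolate), with circles for replicate 1, squares for replicate 2 and a line at the mean of 2; every panel spans 1 log2 unit. Mfap4 separates 7 h from 25 h under both treatments (lowest 7 h array 11.60, highest 25 h array 11.43), while the 2 mepenzolate arrays at 7 h lie far apart for Eln, Mfap5, Fbln5 and Lox.

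For no gene of the set did the difference between mepenzolate and vehicle pass the test against the spread between arrays. The number called was 0 of 9 at 25 h and 0 of 9 at 7 h by limma, against 0% of all genes tested in each comparison. At an unadjusted p under 0.05 there were 0 of 9 at 25 h, against 4.01% of all genes (599 genes), and 1 of 9 at 7 h, Fbln2, against 2.39% (357 genes). With 2 arrays a group the 95% intervals at 25 h still admit changes of down to -36.5% for Lox and up to 24.5% for Eln, so small effects were not detectable.

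Elastin itself (Eln, probe set 10534343) stood at 10.20 and 10.44 in vehicle lungs at 25 h and at 10.32 and 10.31 in mepenzolate lungs. At 7 h it stood at 10.09 and 10.08 in vehicle lungs and at 10.37 and 9.94 in mepenzolate lungs. The mepenzolate arrays fell between the vehicle arrays at 25 h and on either side of them at 7 h, so the groups overlapped at both times. The difference, mepenzolate minus vehicle, was -0.0069 ± 0.14 at 25 h (95% interval -0.33 to 0.32) and 0.07 ± 0.14 at 7 h (-0.25 to 0.40). The limma adjusted p was 0.997 at 25 h and 1 at 7 h. The sign at 25 h turned to 0.02 under median centring of the arrays.

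Of the microfibril genes, Mfap4 (probe set 10376778) encodes a fibrinogen-domain glycoprotein that binds elastin and microfibrils. It stood at 11.31 and 11.43 in vehicle lungs at 25 h against 11.29 and 11.23 in mepenzolate lungs, a difference of -0.11 ± 0.09. At 7 h it stood at 11.61 and 11.74 in vehicle lungs against 11.68 and 11.60 in mepenzolate lungs, a difference of -0.04 ± 0.09. The groups did not overlap at 25 h and overlapped at 7 h.

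Mfap5 (probe set 10541496) encodes the small microfibril glycoprotein MAGP-2. At 25 h it stood at 9.53 and 9.50 in vehicle lungs and at 9.42 and 9.28 in mepenzolate lungs, with no overlap (-0.16 ± 0.12). At 7 h it stood at 9.47 and 9.50 in vehicle lungs and at 9.50 and 9.13 in mepenzolate lungs (-0.17 ± 0.12). Only the second mepenzolate array was low at 7 h, and without it the difference was 0.014. Averaged over both times Mfap5 had the largest negative treatment difference of the set, -0.17 ± 0.09, with a limma adjusted p of 0.999 and an interval from -0.37 to 0.03.

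Fibulins bind elastin and calcium through rows of EGF-like domains. Fbln5 (probe set 10402211) is required for elastic fibre assembly, and Fbln2 (probe set 10540085) binds fibrillin and basement membrane proteins. At 7 h Fbln2 stood at 8.52 and 8.68 in vehicle lungs and at 8.96 and 8.82 in mepenzolate lungs, and Fbln5 at 10.05 and 9.9996 against 10.44 and 10.07. Both were without overlap and were the only 2 of the 9 to stand wholly higher with mepenzolate at 7 h, where 8.26% of all genes did so. Of the 9, 0 stood wholly lower (15.5% of all genes), and 23.7% of all genes were without overlap in either direction. The difference was 0.29 ± 0.11 for Fbln2 (22.2% higher, interval 2.74% to 45.3%) and 0.23 ± 0.12 for Fbln5, with a limma adjusted p of 1 for each. Fbln5 rested on the first mepenzolate array, without which its difference was 0.046.

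At 25 h the differences of these fibulins between treatments were smaller than their standard errors. Fbln2 stood at 8.67 and 8.61 in vehicle lungs and at 8.71 and 8.46 in mepenzolate lungs (-0.05 ± 0.11). Fbln5 stood at 10.10 and 10.14 against 10.12 and 9.997 (-0.06 ± 0.12). The difference of the mepenzolate effect between the times was -0.34 ± 0.15 for Fbln2 and -0.29 ± 0.17 for Fbln5, each with a limma adjusted p of 1 for that interaction, so a change of the effect with time was not shown. With 1 array left out the interaction lay between -0.47 and -0.21 for Fbln2, the latter without the second mepenzolate array at 25 h. For Fbln5 it lay between -0.48 and -0.11, without the second and the first mepenzolate array at 7 h. Over all genes 0% were called for the interaction, and 2.68% (400 genes) had an unadjusted p under 0.05, with 0 of the 9 among them.

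Fbln1 (probe set 10425945) encodes a fibulin of elastic fibre cores and vessel walls. It stood at 9.39 and 9.27 in vehicle lungs and at 9.17 and 9.30 in mepenzolate lungs at 7 h, and at 9.12 and 9.08 against 9.13 and 8.999 at 25 h. The treatments overlapped at both times, with differences of -0.10 ± 0.09 and -0.04 ± 0.09.

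The crosslinking enzymes are copper-dependent amine oxidases that turn lysines of tropoelastin and collagen into reactive aldehydes. Lox (probe set 10458894) stood at 10.29 and 10.10 in vehicle lungs at 25 h and at 9.999 and 9.86 in mepenzolate lungs. These groups did not overlap, and the difference of -0.27 ± 0.17 was the largest of the set at 25 h (limma adjusted p 0.979; -0.17 without the first vehicle array). At 7 h Lox stood at 10.50 and 10.18 in vehicle lungs and at 10.63 and 10.16 in mepenzolate lungs, with overlap (0.05 ± 0.17).

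Loxl1 (probe set 10594066), whose product is directed to elastic fibres through fibulin-5, stood at 9.92 and 9.87 in vehicle lungs at 25 h against 9.87 and 9.69 with mepenzolate (-0.12 ± 0.11). At 7 h it stood at 9.79 and 9.56 against 9.75 and 9.60 (-0.0020 ± 0.11). Emilin1 (probe set 10520604) encodes a glycoprotein at the surface of the elastin core. It kept the narrowest range of the set, 7.95 to 8.20 over the 8 arrays, and differed by -0.03 ± 0.09 at 25 h and -0.06 ± 0.09 at 7 h. Both genes overlapped between treatments at both times.

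As a set, 9 of 9 genes were lower with mepenzolate at 25 h, with a median difference of -0.061. Of all genes tested 58.7% were lower, with a median of -0.023. In 3 of the 9 (Lox, Mfap5 and Mfap4) the arrays did not overlap, against 22.4% of all genes lower without overlap, and in 0 were they wholly higher (14.2%; 36.6% in either direction). The sign is not firm gene by gene, since 5 of the 9 (Eln, Emilin1, Fbln1, Fbln2 and Fbln5) turned positive when 1 array was left out. For 4 of these it was the second mepenzolate array (Fbln2 0.074, Emilin1 0.075, Fbln1 0.024, Fbln5 0.00093) and for Eln the second vehicle array (0.11). That second mepenzolate array was below the first in 9 of 9 genes (median gap 0.14), where 56.3% of all genes were. At 7 h 4 genes were higher and 5 lower, with a median of -0.0020 against -0.013 over all genes. Averaged over both times 3 were higher and 6 lower, 0 of 9 had an unadjusted p under 0.05 (3.77% of all genes, 563 genes), and 0 of 9 were without overlap (2.41% of all genes, with 0.602% higher and 1.81% lower). Limma called 0 of 9 there too, against 0% of all genes.

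Mesothelium is the lining of the lung surface. Of its 5 markers tested 3 (Msln, Upk3b and Lrrn4) stood wholly higher on the 4 mepenzolate arrays, and 0 were called. Over all genes 0.602% were wholly higher there. Of the mesothelial markers, Msln stood at 7.27 to 7.51 on the 4 vehicle arrays and at 7.55 to 7.94 on the 4 mepenzolate arrays, and Upk3b at 8.31 to 8.52 against 8.55 to 8.82. Of the 5 tested 4 were higher with mepenzolate at 25 h (median 0.412) and 4 of 5 at 7 h (median 0.286), with 0 called, and the mean level of all 6 listed markers, Bnc1 included, relative to the 8-array mean was 0.07 to 0.22 on mepenzolate arrays and -0.16 to -0.05 on vehicle arrays. Wt1 (6.58 to 6.82 over the 8 arrays) and Upk1b (6.71 to 7.45), also mesothelial markers, overlapped between treatments. Bnc1 was below the filter on low levels. Of 7 smooth muscle markers 6 were higher with mepenzolate at 25 h (median 0.116), 0 of them without overlap, and 3 were higher at 7 h. Of 6 lung fibroblast markers 5 were lower at 25 h (median -0.06) and 3 at 7 h. The exception at 25 h was Tcf21 (0.205 ± 0.09). Its 4 mepenzolate arrays (9.63 to 9.82) lay above its 4 vehicle arrays (9.38 to 9.62). Of the 6 it alone was wholly higher over both times and 0 were wholly lower, against 0.602% and 1.81% of all genes. Among all genes tested 41.3% were higher and 58.7% lower at 25 h. Club cell markers were higher in 3 of 3 cases at 25 h, all without overlap (0.115 to 0.199), where 14.2% of all genes were wholly higher. At 7 h 2 of the 3 were lower, both without overlap (lowest -0.226), where 15.5% of all genes were wholly lower. Endothelial markers were lower in 5 of 6 cases at 25 h and in 2 of 6 at 7 h. At 25 h Sox18 stood at -0.447 ± 0.08 and the other 5 between -0.089 and 0.028. The cardiac marker Tnnt2 stood at -1.09 ± 0.34 at 25 h, while 3 of the 6 cardiac markers were higher. At 7 h 5 of the 6 were lower (median -0.219), 2 of them without overlap, where 15.5% of all genes were wholly lower. Mb stood at -0.62 ± 0.16 at 7 h. Averaged over both times 6 of 6 cardiac markers were lower, 0 of them without overlap, where 60% of all genes were lower. None of these was called. The part of these cells in the treatment differences, that of Fbln2 at 7 h included, was not tested.

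**Figure D2:**
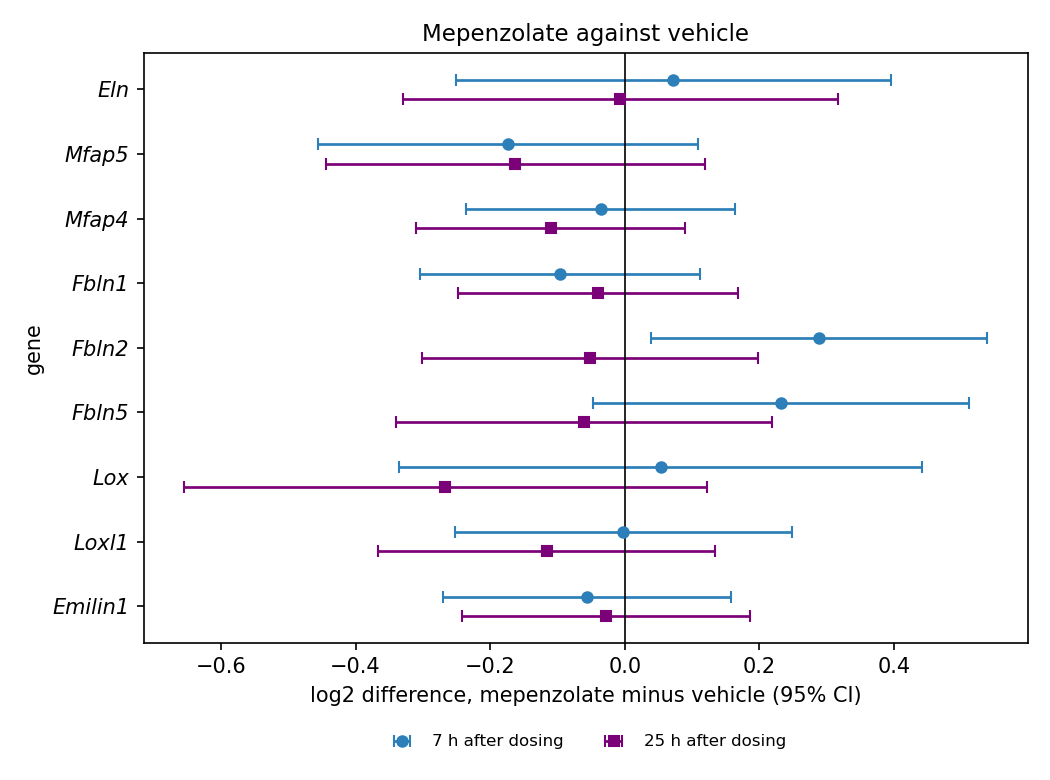
Log2 difference, mepenzolate minus vehicle, of the 9 genes at 7 h (circles) and 25 h (squares), with 95% intervals from limma on 2 arrays a group. All 9 points at 25 h lie below 0 and their intervals all cross it; at 7 h the Fbln2 interval alone (0.04 to 0.54) stays above 0 before adjustment for the number of genes.

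The second question the design allows is how the genes stood at 25 h against 7 h. These comparisons use the same arrays as those of treatment. Limma called 0 of 9 genes in vehicle lungs, against 0.0869% of all genes (13 genes), 0 of 9 in mepenzolate lungs, against 0.0268% (4 genes), and 0 of 9 over both treatments, against 0.221% (33 genes). At an unadjusted p under 0.05 there were 2 of 9 in vehicle lungs (5.74% of all genes), 3 of 9 in mepenzolate lungs (6.37%) and 3 of 9 over both (8.97%).

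Mfap4 came nearest to a call. Its 4 arrays at 7 h (11.60 to 11.74) all lay above its 4 arrays at 25 h (11.23 to 11.43). The difference, 25 h minus 7 h, was -0.31 ± 0.09 in vehicle lungs, -0.38 ± 0.09 in mepenzolate lungs and -0.35 ± 0.06 over both, or -21.3% on the linear scale (95% interval -28.7% to -13.2%). The limma adjusted p was 0.0964 over both treatments, and 0.526 and 0.333 within vehicle and mepenzolate lungs. It passed under 2 alternatives, a filter at the 50th percentile of gene means (adjusted p 0.047) and an intensity trend with robust estimation (0.0172), and lay between 0.0648 and 0.153 under the other 5. With any 1 array left out it lay between 0.135 and 0.328. Mfap4 ranked 72 by p among the 14953 genes.

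Fbln1, like Emilin1, had the same order of group means as Mfap4, though not the same order of arrays. Fbln1 stood at 9.17 to 9.39 at 7 h and 8.999 to 9.13 at 25 h, with no overlap. Its difference was -0.20 ± 0.06 over both treatments (limma adjusted p 0.346), -0.23 ± 0.09 in vehicle lungs and -0.17 ± 0.09 in mepenzolate lungs. Mfap4 and Fbln1 were the 2 of 9 genes wholly lower at 25 h over both treatments, where 4.15% of all genes were, and 0 of 9 were wholly higher (2.55% of all genes; 6.69% in either direction).

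Lox differed between 25 h and 7 h by -0.31 ± 0.12 over both treatments (limma adjusted p 0.477), with overlap. The difference was -0.47 ± 0.17 in mepenzolate lungs, where the arrays did not overlap, and -0.15 ± 0.17 in vehicle lungs, where they did. In mepenzolate lungs it was -0.23 without the first 7 h array and -0.70 without the second. Fbln2 stood at -0.30 ± 0.11 in mepenzolate lungs, also without overlap, and at 0.04 ± 0.11 in vehicle lungs. The former was -0.18 without the second mepenzolate array at 25 h. The interaction given above for Fbln2, and that of Lox (-0.32 ± 0.24), did not pass, and that of Lox was -0.09 without the first mepenzolate array at 7 h.

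Eln and Loxl1 leaned the other way. In vehicle lungs the 25 h arrays of Eln (10.20 and 10.44) lay above its 7 h arrays (10.09 and 10.08), a difference of 0.23 ± 0.14 (0.12 without the second 25 h array), and over both treatments it was 0.20 ± 0.10 (limma adjusted p 0.636). Loxl1 stood 0.22 ± 0.11 higher at 25 h in vehicle lungs, without overlap, and 0.16 ± 0.08 higher over both treatments (0.602). In vehicle lungs 3 of 9 genes (Eln, Loxl1 and Fbln5) were wholly higher at 25 h and 2 wholly lower, against 20.9% and 22.2% of all genes (43.1% in either direction). In mepenzolate lungs 0 were wholly higher and 4 wholly lower (Mfap4, Fbln1, Fbln2 and Lox), against 12.5% and 15.2% (27.7% in either direction). Mfap5 (0.03 ± 0.09) and Emilin1 (-0.04 ± 0.07) were near 0 over both treatments.

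**Figure D3:**
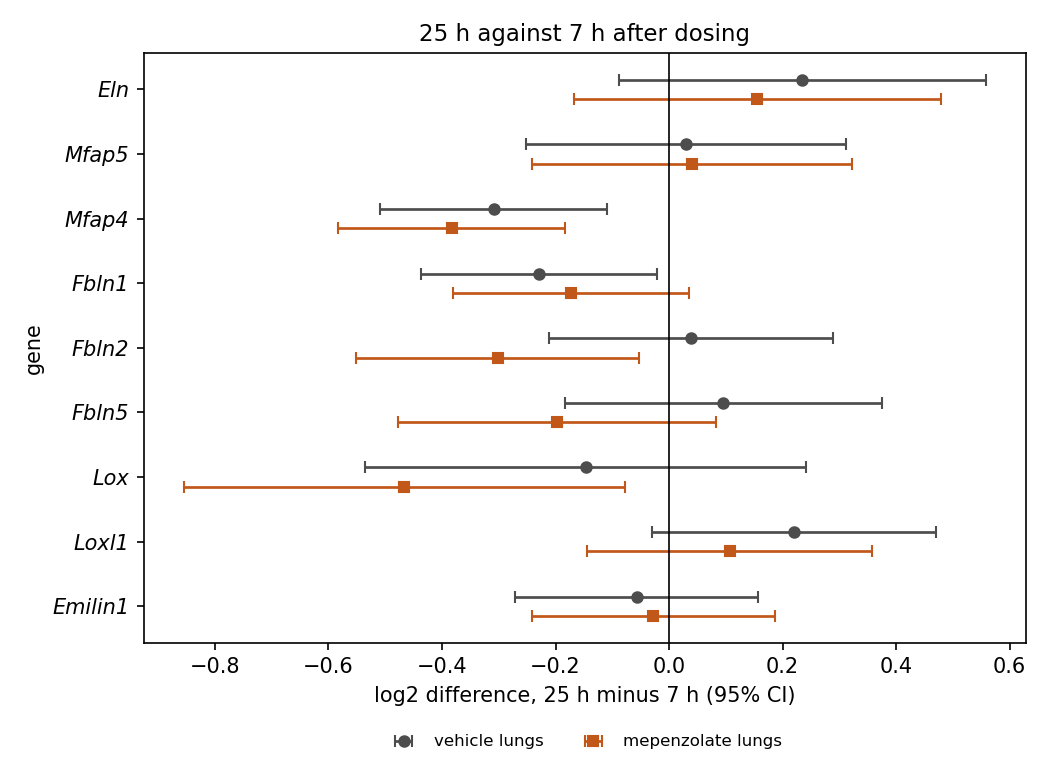
Log2 difference, 25 h minus 7 h, of the 9 genes in vehicle lungs (circles) and mepenzolate lungs (squares), with 95% intervals from limma on 2 arrays a group. Mfap4 lies below 0 under both treatments (-0.31 and -0.38) with intervals clear of 0 before adjustment; Eln and Loxl1 lie above 0 with intervals that cross it.

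Smooth muscle and fibroblasts are the main sources of elastic fibre proteins in the lung, so their markers are given beside the time differences. Of 7 smooth muscle markers (Myh11, Acta2, Tagln, Cnn1, Des, Actg2 and Lmod1) 7 were lower at 25 h over both treatments, with a median of -0.13 and 0 called, where 49.3% of all genes were lower. Cnn1 stood at -0.26 ± 0.11 and Des at -0.21 ± 0.09. On each array their mean level, taken relative to the 8-array mean, was -0.04 and 0.18 in vehicle lungs at 7 h, 0.06 and 0.04 in mepenzolate lungs at 7 h, -0.01 and -0.21 in vehicle lungs at 25 h and 0.09 and -0.11 in mepenzolate lungs at 25 h.

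Of 6 lung fibroblast markers 4 were lower at 25 h over both treatments (median -0.04), with array levels from -0.05 to 0.07. Of the 6, 2 were wholly lower and 0 wholly higher, where 4.15% and 2.55% of all genes were. In mepenzolate lungs 5 of 6 were lower (median -0.10), 4 of them wholly, and 1 was wholly higher (15.2% and 12.5% of all genes). In vehicle lungs 4 of 6 were lower (median -0.02), 2 of them wholly, and 1 was wholly higher (22.2% and 20.9%). In each comparison 0 of the 6 were called. Of 5 adventitial fibroblast markers 2 were lower over both treatments (median 0.08), with array levels from -0.10 to 0.12. Of 5 mesothelial markers tested 4 were higher (median 0.01). Of 6 cartilage markers 2 passed the filter on low levels, and Acan, Cnmd, Matn1 and Hapln1 did not. The mean level of the list on each array, relative to the 8-array mean, lay between -0.10 and 0.07 for endothelial, -0.37 and 0.29 for cardiac and -0.40 and 0.39 for adipocyte markers. The part of these cells in the differences of the elastic fibre genes was not tested.

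The rest of the elastic fibre pathway was read from a list of 52 further genes, of which 50 had a probe set of their own and 48 were tested. Limma called 0 of the 48 in every comparison of treatment and time. With mepenzolate at 25 h 19 were higher and 29 lower (median -0.024), and at 7 h 30 were higher and 18 lower (median 0.024). The share of all genes that were lower was 58.7% at 25 h (median -0.023) and 56.4% at 7 h (median -0.013). At 25 h against 7 h over both treatments 15 were higher and 33 lower (median -0.07), against a median of 0.0014 over all genes.

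Microfibril genes and latent TGF-beta binding proteins (Fbn2, Mfap2 and Ltbp1 to Ltbp4 by name) were lower in 5 of 6 cases with mepenzolate at 25 h, where 58.7% of all genes were. Ltbp4 stood at -0.16 ± 0.10 and Ltbp3 at -0.15 ± 0.08. At 7 h 4 of 6 were higher. Of 8 further fibulins, lysyl oxidases and emilins tested, 4 were lower and 4 higher with mepenzolate at 25 h. Emilin3 (-0.29 ± 0.15) and Fbln7 (-0.17 ± 0.09) stood lower and Mmrn2, an emilin-family protein of endothelium, higher (0.22 ± 0.15). Efemp2 was not analysed here, and Loxl2 shares its probe set with another gene and was left out.

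Among 7 ADAMTS and ADAMTS-like genes, whose secreted products bind fibrillin, Adamtsl2 stood lowest against time. Its 7 h arrays (9.09 to 9.36) lay above its 25 h arrays (8.57 to 8.84), a difference of -0.45 ± 0.08 over both treatments (limma adjusted p 0.115). Adamts6 stood at 0.29 ± 0.11 with mepenzolate at 25 h (0.979).

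Proteases that can cut elastin showed no common direction. Of 10 listed, 8 were tested, and Mmp7 and the neutrophil elastase gene Elane were below the filter. With mepenzolate at 25 h 3 were higher and 5 lower. Mmp9, gelatinase B, stood at 8.92 and 8.80 in vehicle lungs and at 8.43 and 8.42 in mepenzolate lungs, a difference of -0.43 ± 0.22 (0.979). At 7 h its vehicle arrays lay far apart (8.74 and 7.93), on either side of the mepenzolate arrays (8.44 and 8.43). Cathepsin S, Ctss, was 0.23 ± 0.07 higher at 25 h than at 7 h over both treatments (limma adjusted p 0.276).

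All 6 protease inhibitor genes tested were lower at 25 h than at 7 h when averaged over both treatments (median -0.14), where 49.3% of all genes were. In mepenzolate lungs 6 of 6 were lower, but in vehicle lungs 4 were lower and 2 higher. The 2 were Timp1 (vehicle means 7.89 at 25 h and 7.81 at 7 h) and Cst3 (12.42 and 12.40). Timp3, a matrix-bound metalloproteinase inhibitor, had the smallest p of the pathway. It stood at 12.03 to 12.16 on the 4 arrays at 7 h and at 11.70 to 11.81 on the 4 at 25 h, a difference of -0.36 ± 0.06 with a limma adjusted p of 0.0646. Timp1 stood 0.41 ± 0.17 and Cst3, cystatin C, 0.27 ± 0.10 higher with mepenzolate at 7 h, each with an adjusted p of 1 in limma.

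TGF-beta ligands and activators, which raise elastin synthesis in many cells, were higher in 3 and lower in 4 of 7 cases with mepenzolate at 25 h, with Thbs1 at -0.27 ± 0.16 and Tgfb1 at -0.15 ± 0.10. Proteoglycan, fibronectin, copper transport and procollagen protease genes stood within -0.13 and 0.04 at 25 h (6 genes).

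The signs of correlation among the 9 genes were mixed over the 8 arrays. Of 36 pairs 24 had a positive Pearson r and 12 a negative one, with a median of 0.26. The highest were Fbln2 with Fbln5 (0.76) and Mfap4 with Fbln1 (0.75), and the lowest Eln with Fbln1 (-0.76). The arrays share groups, so these values mix differences between groups with differences between replicates. With group means removed, 27 pairs were positive and 9 negative, with a median of 0.402. There r was 0.54 for Fbln2 with Fbln5 and -0.53 for Mfap4 with Fbln1, and the highest was Mfap5 with Fbln5 (0.96). For both genes of that last pair replicates lay farthest apart in mepenzolate lungs at 7 h, where the first array stood 0.375 above the second for Mfap5 and 0.372 for Fbln5.

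**Figure D4:**
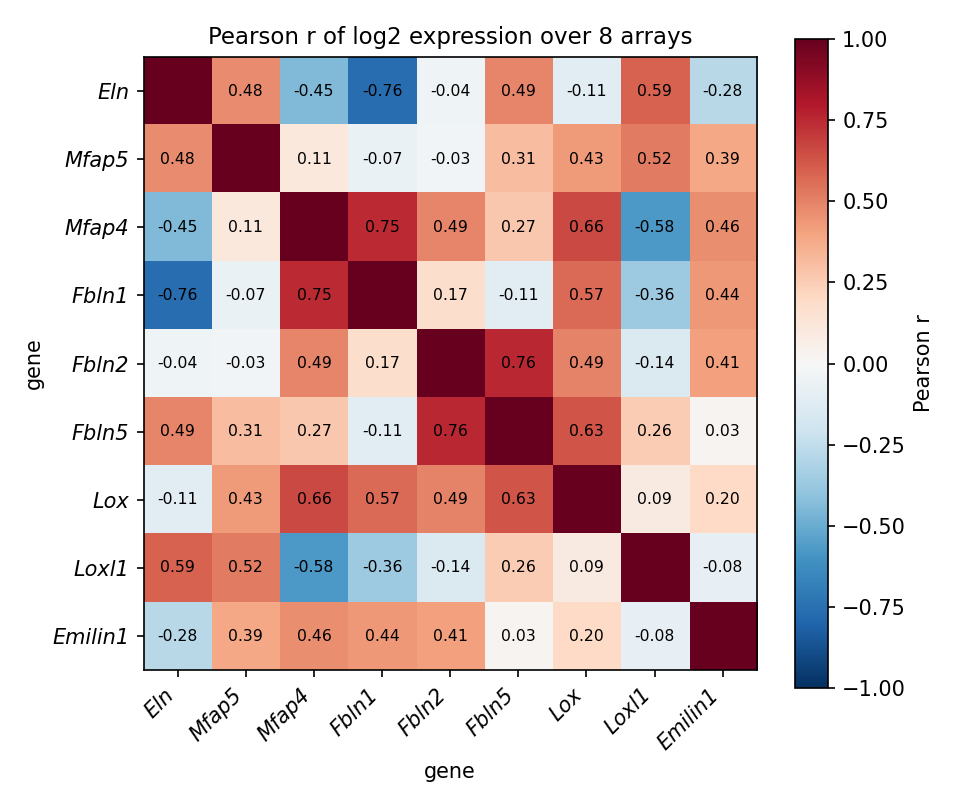
Pearson r of log2 expression between each pair of the 9 genes over 8 arrays, from -1 (blue) to 1 (red). Fbln2 with Fbln5 (0.76) and Mfap4 with Fbln1 (0.75) have the highest values, Lox is positive with Mfap4 (0.66), Fbln5 (0.63) and Fbln1 (0.57), and Eln is negative with Fbln1 (-0.76).

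The genes differed in how far replicates lay apart. The SD between replicates was largest for Lox (0.22), above that of 93.1% of genes tested, and for Eln (0.17), and smallest for Mfap4 (0.07) and Fbln1 (0.08). On the first mepenzolate array at 7 h Lox stood 0.468 and Eln 0.429 above the second, and 7 of 9 genes were higher on the first, against 61.8% of all genes. The genes most like Eln over the 8 arrays, out of all genes tested, were Rai14 (r = 0.98), Ndufaf7 (0.97), Tmem26 (0.97), Mrpl18 (0.97) and Ube2e1 (0.96). None of them was an elastic fibre gene of the lists used. They are the top of a ranking of all genes tested on only 8 arrays, and co-expression with Eln was not tested. Other members had matches as high, such as Emilin1 with Snap25 (0.99) and Mfap5 with Tmppe (0.985).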

How the data were processed

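Whole lung RNA of 8 samples was hybridised to Affymetrix mouse gene arrays, with groups and replicate numbers from the titles. The deposited values were log2 expression levels of 34760 probe sets, produced by the authors with RMA, per the submitters' processing notes. The version used is not given in the sources used here. The method removes background and equalises the arrays, and it can shrink differences of dim genes. Of the probe sets 21640 had 1 gene symbol in the platform annotation, 1321 several and 11799 none here. The brightest single-symbol probe set stood for a gene (19937 genes), and the 14953 genes whose mean reached the 25th percentile (log2 5.93) were tested.

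Limma 3.58.1 in R 4.3.3 fitted 1 mean per group with a shared spread (4 residual and 4.09 prior degrees of freedom). The 7 comparisons share arrays. P-values were adjusted over all genes tested by Benjamini-Hochberg. Errors are moderated standard errors. The procedure was tested on simulated data. Arrays have no read depth, and their number limits the precision. The members and lists were chosen with earlier results of these data known. Named were all members, the 5 genes most like Eln and, from the lists, mainly genes with a large moderated t. Not every such gene was named, and an unnamed list gene can have a larger t than a named one. Alternatives were a replicate block, an intensity trend with robust estimation, other filters, quantile and median scaling, the mean of a gene's probes, fits on the compared groups only and each array left out.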

Additional observations from a re-analysis of the deposited data

How the results depend on the processing

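The number of elastic fibre genes called stayed at 0 in all comparisons and alternatives except 25 h minus 7 h over both treatments, where a filter at the 50th percentile and an intensity trend with robust estimation each called 1, Mfap4. Whether replicate numbers pair the arrays is not given by the labels. Deviations from group means correlated between same-numbered arrays at 0.194 to 0.396 in 3 of 6 pairs of groups (both mepenzolate groups and vehicle at 7 h) and at -0.021 to 0.027 in the 3 pairs with vehicle at 25 h. The first arrays of both mepenzolate groups and of vehicle at 7 h also had the lowest medians over all probes (6.70 to 6.72). All other arrays stood at 6.75 to 6.77. The part of these medians in the correlations was not tested. The replicate block moved the genes called from 0 to 1 for mepenzolate at 25 h, from 4 to 9 for time in mepenzolate lungs and from 33 to 73 for time over both treatments. For time in vehicle lungs 13 genes were called, 7 with quantile normalization and 33 with the intensity trend. For time in mepenzolate lungs there was 1 call with no filter, 0 with quantile normalization and 1 with the compared groups only. For time over both treatments there were 72 with the stricter filter and 123 with the intensity trend. With single arrays left out, genes called ranged from 0 to 1 (treatment at 25 h), 0 to 2 (treatment at 7 h, both times, and the interaction), 0 to 14 (time, vehicle), 0 to 2 (time, mepenzolate) and 11 to 34 (time, both). The causes were not tested, though a stricter filter adjusts over fewer genes.

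Signs turned for Eln at 25 h (0.020, median centring), Loxl1 at 7 h (0.0024, quantile), the Mfap5 interaction (-0.011, quantile) and Mfap5 over time in vehicle lungs (-0.0082, median centring). With single arrays left out, 29 of 63 differences changed sign at least once. For treatment at 25 h the ranges were Eln -0.12 to 0.11, Emilin1 -0.13 to 0.075, Fbln1 -0.10 to 0.024, Fbln2 -0.18 to 0.074 and Fbln5 -0.12 to 0.00093. For treatment at 7 h they were Eln -0.14 to 0.29, Emilin1 -0.12 to 0.0085, Lox -0.18 to 0.29, Loxl1 -0.12 to 0.11, Mfap4 -0.097 to 0.026 and Mfap5 -0.36 to 0.014. For both times they were Eln -0.075 to 0.14, Emilin1 -0.093 to 0.0097, Fbln5 -0.0077 to 0.18 and Lox -0.22 to 0.010. For the interaction they were Eln -0.29 to 0.14, Emilin1 -0.075 to 0.13, Fbln1 -0.010 to 0.12, Loxl1 -0.23 to 0.00063 and Mfap5 -0.18 to 0.20. For time in vehicle lungs they were Emilin1 -0.12 to 0.0079, Fbln2 -0.042 to 0.12 and Lox -0.31 to 0.014, and in mepenzolate lungs Eln -0.059 to 0.37, Emilin1 -0.13 to 0.075 and Mfap5 -0.15 to 0.23. For time over both treatments they were Emilin1 -0.094 to 0.0092, Fbln5 -0.14 to 0.042 and Mfap5 -0.059 to 0.13. The other 34 kept their sign.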
